A study of Mus musculus with 6 samples.

Results

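The 33 genes described here carry out the synthesis, uptake and efflux of cholesterol, and they were taken from the 23473 genes of a table of RNA-seq counts from mouse lung. A gene entered by its symbol in a fixed list of enzymes, regulators and carriers, and where the table held several RefSeq transcripts of a gene, the transcript with the largest total count stood for it. All 33 passed the filter on low counts that left 14802 genes for testing. The study compared wild-type (WT) mice with TSPO knockout (KO) mice, both on a C57BL/6 background and 6 to 8 weeks old, and asked which lung genes follow the loss of TSPO. In the KO, exons 2 and 3 of Tspo were removed by Cre recombinase driven by the Protamine promoter, which is active in male germ cells. Heterozygous mice from this breeding were intercrossed, and their homozygous KO offspring lack the exons in every tissue. Each genotype was represented by 9 mice, whose lung RNA went into 3 libraries, each a pool of 3 littermates. The SD values below therefore measure the spread between pools, and p-values refer to that spread and not to single mice.

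Cells make cholesterol from acetyl-CoA through mevalonate and isoprenoid units, which are joined to squalene, closed to lanosterol and trimmed to the final sterol. The transcription factor SREBP2 raises this whole chain when the endoplasmic reticulum runs low in sterol, with SCAP as its escort and the INSIG proteins as its retention factors, while the liver X receptors (LXRs) sense oxysterols and switch on export. In the lung, type 2 alveolar cells need sterol for surfactant, and alveolar macrophages clear surfactant lipid and return cholesterol to lipoproteins. TSPO binds cholesterol in the outer mitochondrial membrane.

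Promoters of 4 synthesis genes are printed, with DNA elements that this regulation is known to use marked where they occur. The CCAAT box occurs in all 4. The sterol regulatory element was searched in a single spelling, TCACNCCAC, which occurs in that of Hmgcs1 alone. Other spellings of the element were not searched, so an unmarked promoter may still hold one. Each run is the 250 bases before the gene's start in RefSeq, GRCm38.p6, 5′ to 3′ on the gene's own strand. Capitals mark 2 motifs on either strand, the CCAAT box (CCAAT, bound by NF-Y, read as ATTGG on the other strand) and the sterol regulatory element (TCACNCCAC). The windows are chr13:119690101-119690350 on the plus strand for Hmgcs1, chr8:122443423-122443672 on the minus strand for Mvd, chr13:8885356-8885605 on the plus strand for Idi1, and chr5:4104698-4104947 on the minus strand for Cyp51.
Hmgcs1: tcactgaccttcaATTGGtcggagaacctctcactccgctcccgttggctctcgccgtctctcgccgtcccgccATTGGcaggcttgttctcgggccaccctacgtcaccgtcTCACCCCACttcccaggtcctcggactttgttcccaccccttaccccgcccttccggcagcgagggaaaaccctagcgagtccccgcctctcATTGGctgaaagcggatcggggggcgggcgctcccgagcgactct
Mvd: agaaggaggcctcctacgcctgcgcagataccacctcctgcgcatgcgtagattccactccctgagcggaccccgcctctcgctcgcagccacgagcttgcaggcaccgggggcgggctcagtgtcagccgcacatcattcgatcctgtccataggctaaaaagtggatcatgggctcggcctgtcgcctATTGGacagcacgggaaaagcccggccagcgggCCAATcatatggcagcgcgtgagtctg
Idi1: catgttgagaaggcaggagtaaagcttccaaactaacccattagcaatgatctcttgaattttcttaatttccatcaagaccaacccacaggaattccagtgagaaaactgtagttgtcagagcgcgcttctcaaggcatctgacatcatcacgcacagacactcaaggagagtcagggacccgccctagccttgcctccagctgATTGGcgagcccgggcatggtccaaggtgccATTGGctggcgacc
Cyp51: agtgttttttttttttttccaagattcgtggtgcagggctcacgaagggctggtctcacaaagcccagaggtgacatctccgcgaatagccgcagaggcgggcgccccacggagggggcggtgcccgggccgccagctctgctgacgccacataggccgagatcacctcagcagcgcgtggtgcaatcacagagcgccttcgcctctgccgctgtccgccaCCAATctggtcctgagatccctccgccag

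RefSeq promoter windows were found for 27 of the 33 genes, in 38 windows, and none was found for Fdps, Fdft1, Sqle, Abcg1, Scarb1 and Npc1. A CCAAT box stood in at least 1 window of all 12 synthesis genes with a window and of 9 of the other 15 genes. Counted by window, it was in 80.0% of those of synthesis genes (12 of 15), in 43.5% of those of the other genes (10 of 23) and in 33.8% of all 32851 mouse windows of the same length. The GC box GGGCGG, a site for SP1-type factors, was in 12 of 15 synthesis windows, in 56.5% of the others (13 of 23) and in 32.7% of all windows. The spelled sterol regulatory element was found in 1 of the 38 windows, that of Hmgcs1, where its first base lies 137 bases before the start, and in 1.05% of all windows. The letters CCAAT and GGGCGG did not overlap each other, and a match is a description of the letters only.

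Library totals over genes ranged from 9617086 to 11942318 counts, and the 33 genes together took 0.426% to 0.518% of them, with 143 to 15428 counts per gene and library. Tspo had 156, 153 and 153 CPM (counts scaled to a common library total) in WT 1, 2 and 3, and 21.6, 21.7 and 19.7 CPM in KO 1, 2 and 3. The KO libraries lay far below the WT libraries, at 0.137-fold of the WT level (95% interval 0.117 to 0.160), which is the check of the labels. WT 3 stood apart by its ribosomal RNA precursor Rn45s, with 11.4% of counts against 0.224% to 0.427% elsewhere, and WT 2 by skeletal muscle genes (summed level 225 CPM against 20.1 to 24.2 CPM) and squamous epithelium genes (226 CPM against 10.1 to 17.5 CPM). WT 3 also had the highest sum of neutrophil markers, 500.3 CPM against 129 to 342 CPM. Levels are CPM after TMM scaling, which offsets the share taken up by such abundant RNAs. Lung identity was plain, since type 2 cell markers summed to 29454 to 37558 CPM and liver markers to 0.370 to 2.98 CPM.

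No difference between KO and WT lungs was called for any of the 33 cholesterol genes. At an adjusted p under 0.05 (edgeR's quasi-likelihood test, Benjamini-Hochberg over all genes) 0 of 33 were called, where 0.00676% of all genes were called, namely Tspo itself. At an unadjusted p under 0.05 the count was also 0 of 33, beside 1.88% of all genes (0.446% higher and 1.43% lower in KO). In 0 of 33 genes did the KO libraries lie wholly above or wholly below the WT libraries, beside 5.46% of all genes (2.28% above and 3.18% below). The exact test of edgeR, limma-voom and DESeq2 likewise called 0 of the 33 genes, with 0 at an unadjusted p under 0.05. The count at an unadjusted p under 0.05 became 2 without WT 3 (Hmgcs1 and Cyp51) or without KO 3 (Pmvk and Cyp51), and 1 with library totals alone as scaling (Cyp51), with 0 of 33 called in each case.

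The log2 fold changes, KO against WT, were small in both directions. They ran from −0.08 for Abca1 to 0.31 for Pmvk, and their median size without sign was 0.06 against 0.08 over all genes. The 95% intervals left out a 2-fold change in either direction for all 33 genes (93.1% of all genes) and a 1.5-fold change for 32 of 33, or 97.0% (75.5% of all genes). The exception was Pmvk, whose interval reached from 0.951-fold to 1.62-fold. The 33 genes were also more abundant, with a median WT level of 58.5 CPM against 26.2 CPM over 14540 genes. Their median standard error was 0.12 against 0.14 over all genes. The sign was above 0 for 25 genes and below 0 for 8, against 50.8% above 0 among all genes, and the median was 0.04 against 0.00 for all genes. With library totals alone as scaling, 27 genes were above 0, but so were 62.6% of all genes.

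**Figure D1:**
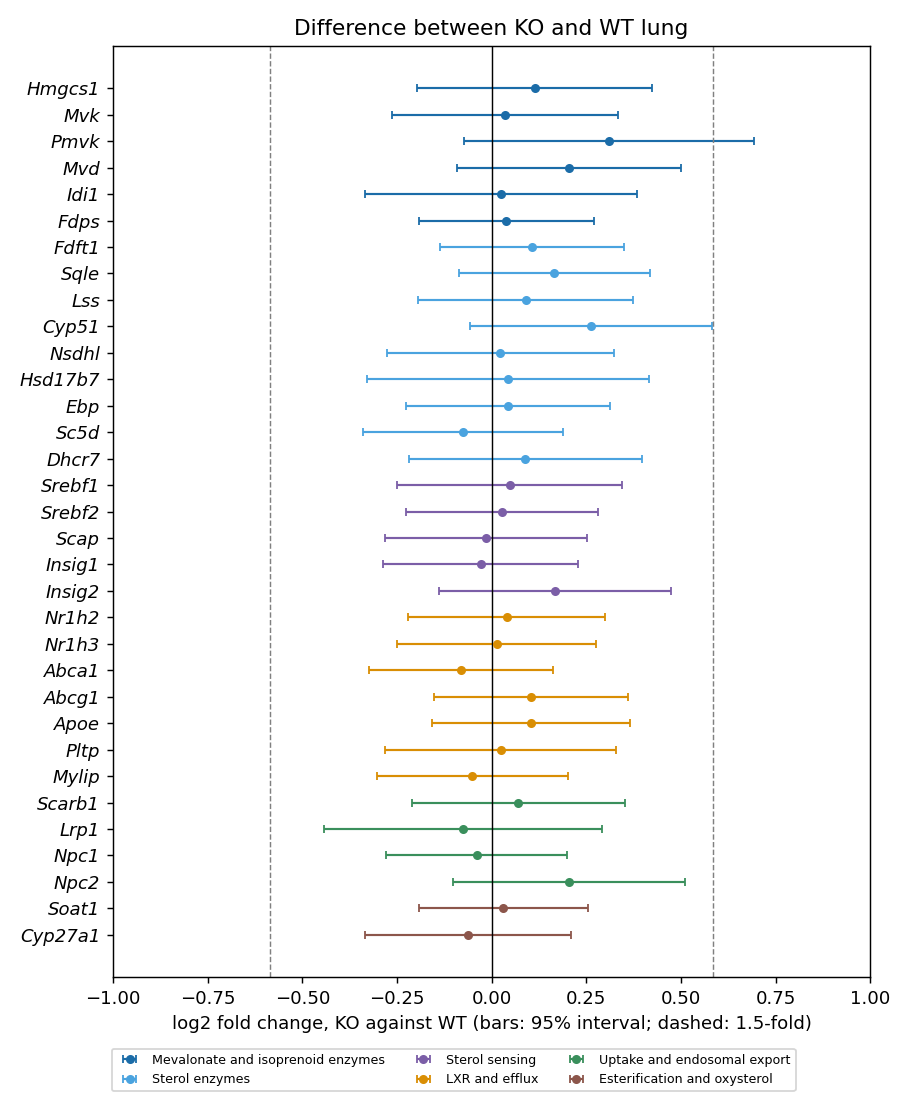
Log2 fold change of each of the 33 cholesterol genes, KO against WT lung (horizontal axis), with its 95% interval as a bar and the genes in their role groups (vertical axis). Every interval crosses 0, and that of Pmvk alone passes the dashed lines at a 1.5-fold change.

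The mevalonate and isoprenoid enzymes build the activated isoprene units from which squalene and all later sterols are assembled. All 6 had log2 fold changes above 0, with a median of 0.08, and 0 of 6 passed the test. The median was −0.0037 without WT 2, where Mvk, Idi1 and Fdps were below 0, and 0.22 without WT 3. Hmgcs1, the cytosolic HMG-CoA synthase at the entry to the mevalonate route, was at 120, 111 and 161 CPM in WT 1, 2 and 3 and at 129, 154 and 140 CPM in KO 1, 2 and 3. The WT pools alone spanned the whole KO range, and the highest as well as the lowest value came from WT. The means were 131 ± 26.9 and 141 ± 12.2 CPM (SD, n = 3), and the log2 fold change was 0.11 with a 95% interval of −0.20 to 0.42.

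Pmvk, which adds the second phosphate to mevalonate, had the largest log2 fold change of the 33 genes. Its levels were 34.8, 27.1 and 27.8 CPM in WT and 44.3, 40.1 and 27.0 CPM in KO. KO 1 and KO 2 lay above every WT pool, whereas KO 3 was the lowest of all 6 libraries. The fitted difference was 0.31 on the log2 scale (standard error 0.17, 95% interval −0.07 to 0.69, unadjusted p = 0.102). Pmvk and Cyp51 are described in every library because of these values, and Hmgcs1, Sqle, Pltp and Lrp1 were added in the same way.

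Mvd, the decarboxylase that yields isopentenyl diphosphate, was the lowest of this group per kb of transcript, at 10.3 CPM per kb in WT. Its levels were 19.7, 17.0 and 19.7 CPM in WT and 20.6, 24.6 and 19.7 CPM in KO, with KO 2 high, WT 2 low and the other pools close together. The log2 fold change was 0.20 (95% interval −0.09 to 0.50), and the entry with the largest total is a noncoding RefSeq transcript with nearly the same counts as the coding one. Fdps, which makes farnesyl diphosphate and is the target of the bisphosphonate drugs, was the highest per kb, at 42.4 CPM per kb in WT. It stood at 59.0, 54.3 and 62.4 CPM in WT and 61.1, 63.9 and 55.2 CPM in KO. The genotypes overlapped almost completely, with a log2 fold change of 0.04 (−0.19 to 0.27). Mvk, the mevalonate kinase, had a log2 fold change of 0.04 (−0.26 to 0.33), and Idi1, the isomerase that interconverts the isoprene units, had 0.02 (−0.33 to 0.38).

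The sterol enzymes take over at squalene. Of these 9, log2 fold changes were above 0 for 8 and below 0 for Sc5d, with a median of 0.09, and 0 of 9 passed the test. Leaving out each library in turn moved that median between 0.06 (without WT 2) and 0.16 (without KO 1). Cyp51, the lanosterol demethylase, had the smallest p of all 33 genes. It was measured at 42.2, 39.3 and 53.8 CPM in WT and 52.9, 62.6 and 46.3 CPM in KO. KO 2 was highest and WT 2 lowest, but WT 3 lay above 2 of the 3 KO pools. The means of 45.1 ± 7.68 and 53.9 ± 8.16 CPM gave a log2 fold change of 0.26 (standard error 0.15, 95% interval −0.06 to 0.58, unadjusted p = 0.0972).

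Sqle, the squalene epoxidase and a rate-limiting step of the later route, was at 44.3, 44.9 and 49.96 CPM in WT and 46.3, 58.6 and 51.0 CPM in KO. KO 2 stood clear of the rest, and KO 1 lay among the WT pools. The log2 fold change was 0.17 (95% interval −0.09 to 0.42). Ebp, the sterol isomerase, was the highest of the group per kb (20.8 CPM per kb in WT), with 40.5, 32.97 and 35.2 CPM in WT and 42.2, 34.0 and 35.8 CPM in KO. Both genotypes held 1 pool near the top and 2 lower ones, so that the groups lay on top of each other. Hsd17b7, a sterol ketoreductase, was the lowest of all 33 genes per kb (3.67 CPM per kb in WT), with 15.5, 15.8 and 19.5 CPM in WT and 14.2, 21.2 and 16.7 CPM in KO. The highest and the lowest pool were both KO.

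The other 5 sterol enzymes had intervals that also held 0. Fdft1, which joins farnesyl units to squalene, had a log2 fold change of 0.11 (95% interval −0.14 to 0.35), and Lss, which closes squalene epoxide to lanosterol, had 0.09 (−0.19 to 0.37). Dhcr7, which makes the final reduction to cholesterol, was also at 0.09 (−0.22 to 0.40), and Nsdhl, which takes part in removing the methyl groups, was at 0.02 (−0.28 to 0.32). Sc5d, the desaturase before Dhcr7, was at −0.07 (−0.34 to 0.19). The summed level of all 15 synthesis enzymes was 653, 590.5 and 738 CPM in WT and 693, 766 and 653 CPM in KO. WT 2 was lowest and KO 2 highest, while KO 3 matched WT 1 and WT 3 exceeded KO 1 and KO 3. The means of the sums for WT and KO were 661 ± 74.0 and 704 ± 57.6 CPM (SD, n = 3), so their distance was smaller than either SD. The SD is the spread of single pools, so this comparison is a description and not a test.

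**Figure D2:**
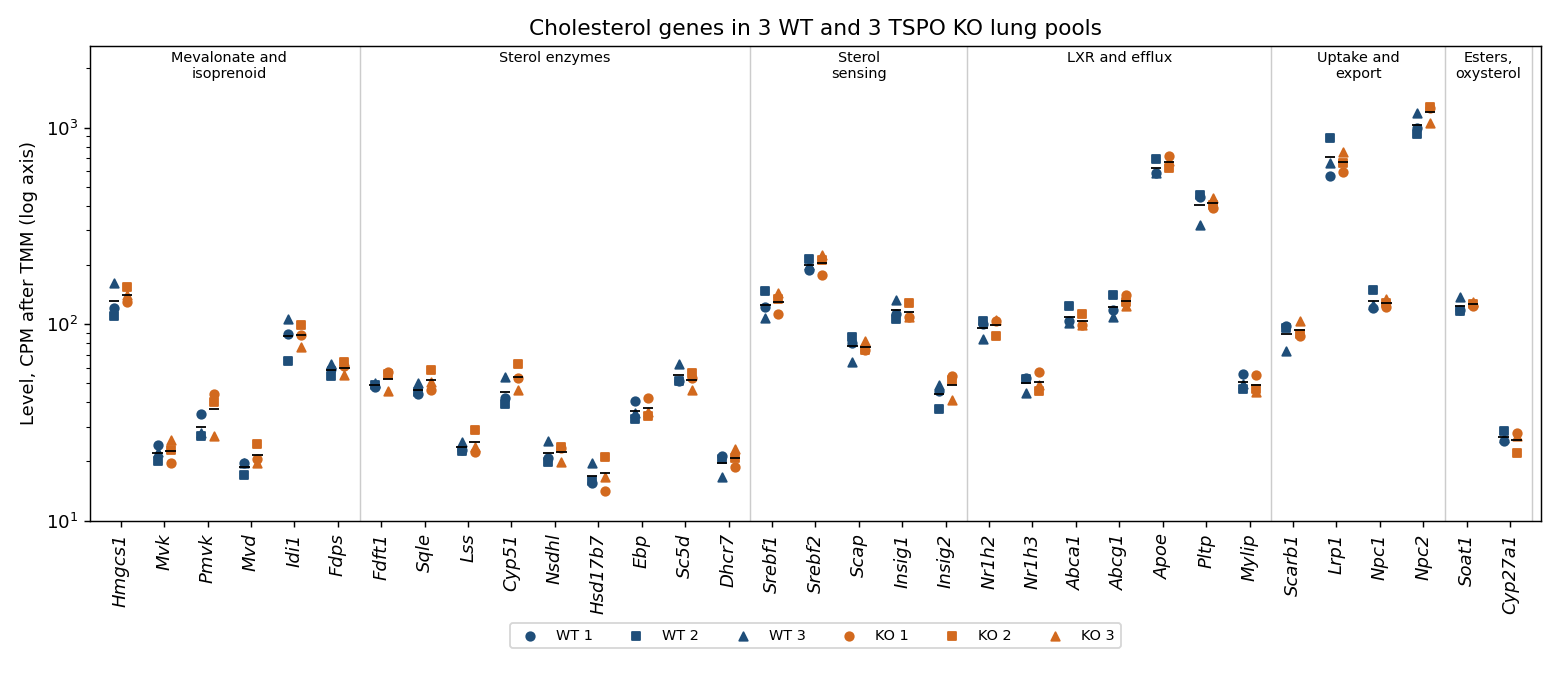
Level of each of the 33 genes (CPM after TMM scaling, log axis) in the 3 WT and 3 KO libraries, with a short line at each mean and the role groups named above. The genotypes overlap for every gene, from Hsd17b7 at 14.2 to 21.2 CPM to Npc2 at 928 to 1277 CPM.

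The sign of 14 of the 15 synthesis enzymes was the same, but the count varied with the pools included. Without WT 2, 8 of 15 had a log2 fold change above 0, and without KO 2 the count was 9 of 15. These 2 pools had the lowest and the highest median of the enzymes, so leaving out either tends to lower the count. The count was 12 without WT 1 or without KO 1, and 14 without WT 3 or without KO 3. Without WT 2 and WT 3 together, which leaves WT 1 as the only WT pool, it was 11 of 15. WT 2 lay below the 6-library mean for 14 of the 15 enzymes, all but Dhcr7, and was the lowest library for 6. KO 2 lay above that mean for 14, all but Ebp, and was the highest library for 6. KO 3, in contrast, was below the mean for 11 of 15, which shows that the KO pools did not move together.

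The medians of the 15 enzymes, as log2 distance from the mean of the 6 libraries, were −0.05, −0.15 and 0.06 in WT 1, 2 and 3 and 0.04, 0.19 and −0.03 in KO 1, 2 and 3. The gap between KO 2 and KO 3, the highest and the lowest KO pool, was thus larger than the 0.09 median log2 fold change between genotypes. Single pools spread more widely than group means, so this is a description and not a test. The median log2 fold change itself was 0.0058 without WT 2, 0.05 without KO 2, 0.14 without WT 3 and 0.16 without KO 1. A related programme, fatty acid synthesis under SREBP1, was also highest in KO 2: the log2 distances of Fasn, Acaca, Acly, Scd1, Scd2, Elovl6 and Me1 had medians of −0.15, 0.10 and 0.03 in WT and −0.23, 0.26 and −0.02 in KO. All 7 genes peaked in KO 2, and all 7 lay below their mean in KO 1. The highest and the lowest median were thus both in KO pools. Gene by gene, 3 of the 7 were lowest in KO 1, 3 in WT 1 and 1 in KO 3. For Scd1, the stearoyl-CoA desaturase, the levels were 2122, 2515 and 2753 CPM in WT and 2126, 3671 and 2543 CPM in KO.

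**Figure D3:**
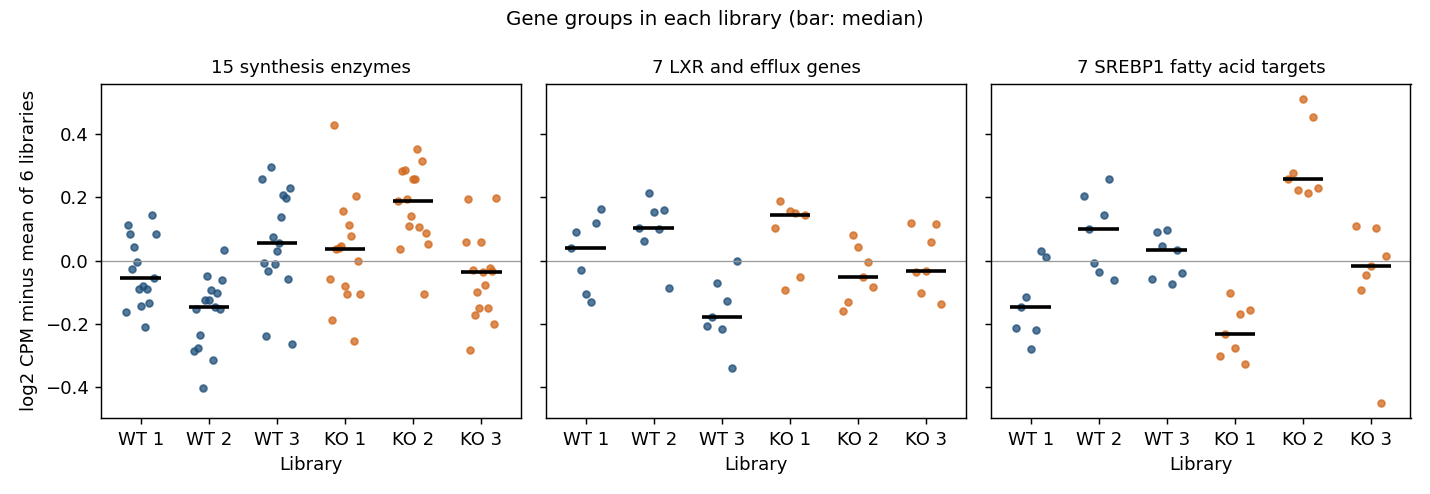
Log2 CPM minus the mean of the 6 libraries (vertical axis) in each library (horizontal axis) for 15 synthesis enzymes, 7 LXR and efflux genes and 7 SREBP1 fatty acid targets, with a bar at the median and a point per gene. KO 2 is high for the synthesis enzymes (median 0.19) and the fatty acid targets (0.26) but not for the efflux genes (−0.05).

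The sterol-sensing machinery that governs these enzymes was even between genotypes. Of 5 genes, 3 had log2 fold changes above 0 and 2 below, with a median of 0.03, which ran from −0.03 without KO 3 to 0.09 without KO 1, and 0 of 5 passed the test. Srebf2, which encodes SREBP2, the main driver of cholesterol synthesis, had 188, 215 and 199 CPM in WT and 178, 212 and 224 CPM in KO. KO pools were both the lowest and the highest. The means were 201 ± 13.9 and 205 ± 24.0 CPM, a log2 fold change of 0.03 (95% interval −0.23 to 0.28). Srebf2 lies at chr15:82147269-82205379, 1.358 Mb from Tspo, the nearest of the 33 genes to the deleted locus, and the only other member on that chromosome is Sqle, 24.23 Mb away.

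Srebf1, which encodes SREBP1 and acts mostly on fatty acid genes, had 123, 147 and 107 CPM in WT and 113, 134 and 144 CPM in KO. WT 2 and WT 3 marked the top and the bottom, with all KO pools between them. The log2 fold change was 0.05 (95% interval −0.25 to 0.35). Insig1, which holds the SCAP complex in the endoplasmic reticulum and is itself a target of SREBP, was the highest of the group per kb (43.5 CPM per kb in WT), with 113, 106 and 133 CPM in WT and 108, 128 and 109 CPM in KO. WT 3 and KO 2 were the high pools, so each genotype held 1. Insig2, its less sterol-responsive relative, was the lowest per kb (16.3 CPM per kb), with 45.9, 37.0 and 48.9 CPM in WT and 54.5, 52.1 and 41.0 CPM in KO. KO 1 and KO 2 exceeded all WT pools and KO 3 did not, as for Pmvk. The log2 fold changes were −0.03 (−0.29 to 0.23) for Insig1, 0.17 (−0.14 to 0.47) for Insig2 and −0.02 (−0.28 to 0.25) for Scap, the sterol-sensing escort.

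**Figure D4:**
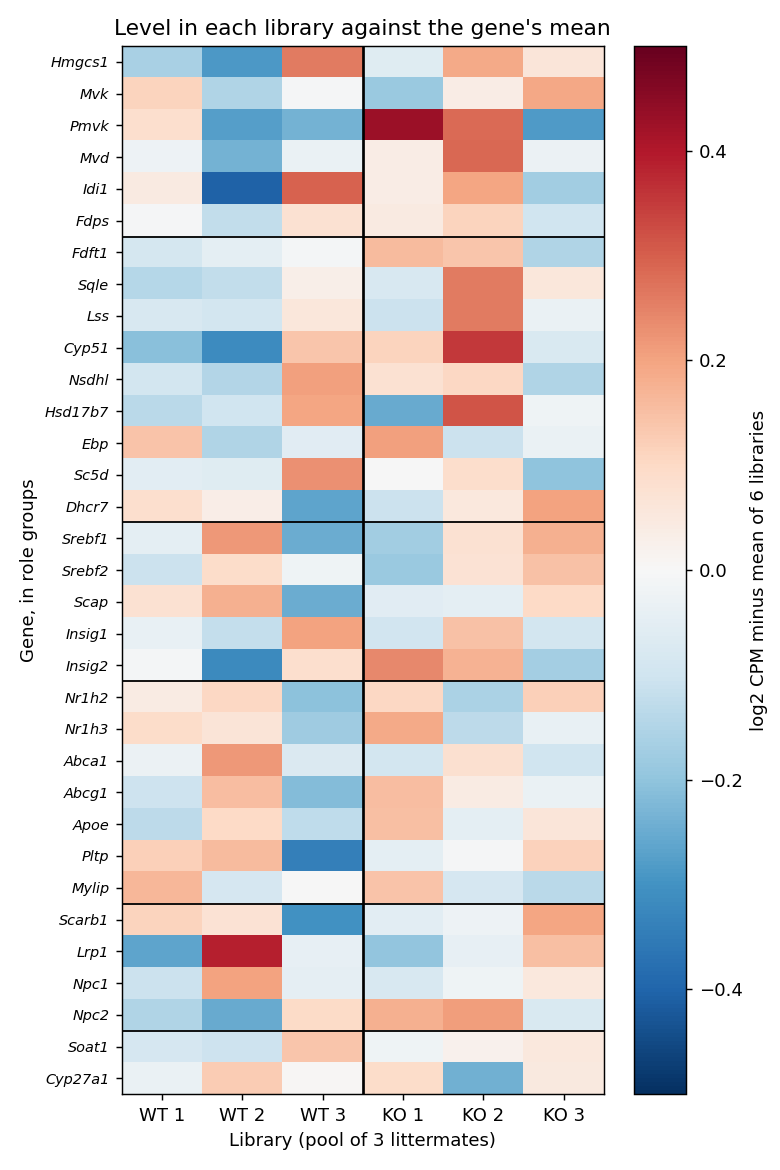
Log2 CPM minus the mean of the 6 libraries for each of the 33 genes (rows, in role groups) in each library (columns), with red above and blue below the mean. WT 2 is blue across 14 of the 15 synthesis enzymes at the top and KO 2 is red across 14 of them.

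The LXR and efflux genes move cholesterol out of cells and onto lipoproteins. Of 7, log2 fold changes were above 0 for 5 and below for 2, with a median of 0.02, which ran from −0.06 without WT 3 to 0.10 without WT 2, and 0 of 7 passed the test. Abca1, the pump that loads cholesterol onto lipid-poor apolipoproteins, had 104, 123 and 101 CPM in WT and 99.2, 112 and 98.7 CPM in KO. WT 2 was highest, and KO 2 lay above WT 1 and WT 3. Its log2 fold change of −0.08 (standard error 0.11, 95% interval −0.32 to 0.16) was the lowest of the 33 genes. Nr1h3, which encodes LXRα, the receptor of macrophages and liver, had 53.5, 52.4 and 44.3 CPM in WT and 57.2, 45.8 and 48.9 CPM in KO. WT 3 was the lowest and KO 1 the highest, with the rest mixed, and the log2 fold change was 0.01 (−0.25 to 0.28).

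Apoe, the apolipoprotein that carries cholesterol from macrophages, was the most abundant of all 33 genes per kb. Its levels were 589, 691 and 589.9 CPM in WT and 715, 622 and 672 CPM in KO. WT 1 and WT 3 were the lowest pools, but WT 2 exceeded KO 2 and KO 3. The means were 623 ± 58.9 and 669.8 ± 46.5 CPM, a log2 fold change of 0.10 (95% interval −0.16 to 0.37). Pltp, the phospholipid transfer protein, had 441, 453 and 320.2 CPM in WT and 391.5, 404 and 439 CPM in KO. WT 3 alone was low, and the other 2 WT pools were the top 2 of all 6. The log2 fold changes of the others were 0.02 for Pltp (−0.28 to 0.33), 0.10 for Abcg1 (−0.15 to 0.36), which exports cholesterol to mature lipoprotein particles, 0.04 for Nr1h2 (−0.22 to 0.30), which encodes LXRβ, and −0.05 for Mylip (−0.30 to 0.20), the LXR target that marks lipoprotein receptors for degradation.

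WT 3 was below the 6-library mean for all 7 of these genes and the lowest library for 4 of them, with a median log2 distance of −0.18. KO 1 had the highest median, 0.14, and KO 2 and KO 3 were at −0.05 and −0.03. Neutrophil markers, highest in WT 3, had sums of 309, 160.1 and 500.3 CPM in WT and 342, 169 and 129 CPM in KO. Base composition also differed in its relation to level between libraries, and the part of either in these values was not tested. Transcripts of the LXR and efflux genes had a median GC content of 57.65% against 49.35% for the sterol enzymes and 50.56% for all genes. The sterol-sensing genes (57.89%) had a median of −0.02 in WT 3, and the mevalonate and isoprenoid enzymes (55.72%) had 0.03. Both groups were mixed in GC content, from 45.98% to 59.1% and from 41.86% to 59.58%. In WT 3, Srebf1, Srebf2 and Scap (58.39%, 57.89% and 59.10%) were at −0.25, −0.02 and −0.25. Insig1 and Insig2 (48.20% and 45.98%) were at 0.20 and 0.08 there. Across the 33 genes, the Spearman correlation of GC content with the log2 distance was −0.74 in WT 3, −0.45 in KO 2, −0.06 in KO 1, 0.29 in WT 1, 0.45 in WT 2 and 0.58 in KO 3. Across 14540 genes it was 0.06, 0.46 and −0.48 in WT 1, 2 and 3 and −0.30, −0.30 and 0.48 in KO 1, 2 and 3. KO 1 had −0.06 over the 33 genes and −0.30 over 14540 genes, with the LXR and efflux median at 0.14. These are descriptions within a library, where genes share the library and are not replicates.

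**Figure D5:**
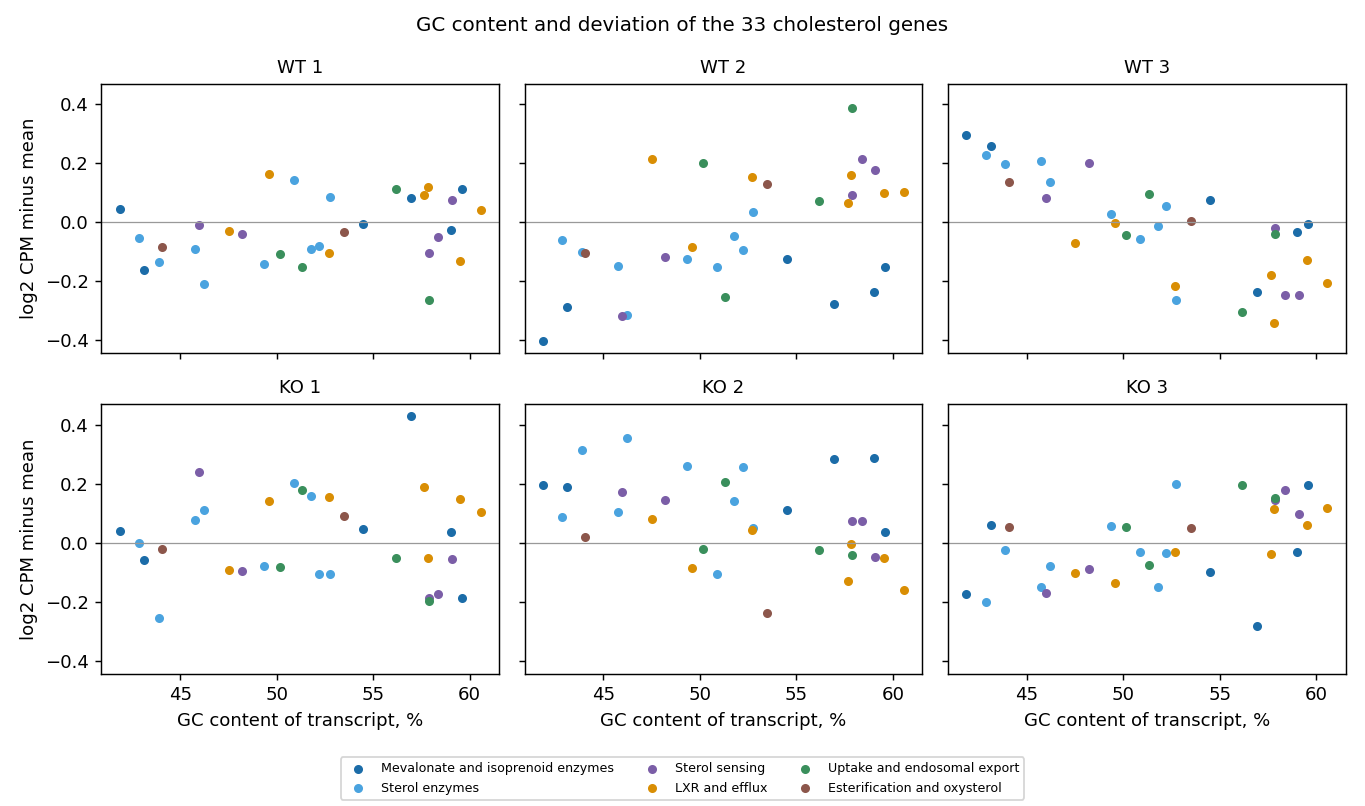
Log2 CPM minus the mean of the 6 libraries (vertical axis) against the GC content of the transcript in percent (horizontal axis) for the 33 genes, with a panel per library and colours for the role groups. The points fall with GC content in WT 3 (Spearman −0.74) and rise with it in KO 3 (0.58).

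The uptake and endosomal export genes bring lipoprotein cholesterol into cells and release it from the endosome. Of 4, 2 had log2 fold changes above 0 and 2 below, with a median of 0.02, which ran from −0.05 without WT 3 to 0.12 without WT 2, and 0 of 4 passed the test. Npc2, the soluble protein that hands cholesterol to NPC1 in the late endosome, was the highest of the group per kb. It was measured at 995, 928 and 1181 CPM in WT and 1252, 1277 and 1049 CPM in KO. KO 1 and KO 2 lay above every WT pool, and KO 3 lay below WT 3. The means were 1035 ± 131 and 1192 ± 125 CPM, and the log2 fold change was 0.20 with a 95% interval of −0.10 to 0.51.

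Type 2 alveolar cell markers, most of whose sum came from the surfactant gene Sftpc, summed to 29454, 30496 and 33224 CPM in WT and 36933, 37558 and 32856 CPM in KO, with all 10 genes of the list above 0 in log2 fold change and a median of 0.12. Alveolar macrophage markers summed to 895, 799.8 and 991 CPM in WT and 1124, 1028 and 792 CPM in KO, with 8 of 9 genes above 0. KO 1 and KO 2 were the highest pools for both sums and for Npc2. Gene by gene, 5 of the 10 type 2 markers (Sftpb, Napsa, Abca3, Slc34a2 and Lpcat1) were highest in KO 3. Another 3 were highest in KO 1 and 2 in KO 2. Of the 9 macrophage markers, 7 were highest in KO 1, 1 in KO 2 and 1 in WT 2. In KO 3 the Npc2 level was below KO 1, KO 2 and WT 3 and above WT 1 and WT 2. The part of cell type in the Npc2 values was not tested. In whole tissue, fewer cells of a type and less RNA per cell cannot be told apart.

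Npc1, the membrane protein that takes cholesterol over from NPC2, was the lowest of the group per kb (25.2 CPM per kb in WT), with 120.2, 149 and 125.5 CPM in WT and 122, 128 and 134 CPM in KO. All 3 KO pools lay inside the WT range, and the log2 fold change was −0.04 (95% interval −0.28 to 0.20). Lrp1, a large endocytic receptor for remnant lipoproteins, had 566, 889 and 661 CPM in WT and 593, 661 and 754 CPM in KO. WT 2 was far above the rest. It is also the pool with the muscle and squamous genes and with the highest adipocyte markers (312 CPM against 152 to 216 CPM), whose part in the Lrp1 value was not tested. The log2 fold change of Lrp1 was −0.08 (−0.44 to 0.29) with all pools and 0.13 without WT 2. Scarb1, the receptor that takes up cholesterol esters from high-density lipoprotein, was at 0.07 (−0.21 to 0.35).

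Esterification stores surplus cholesterol, and oxysterols signal it to the LXRs. Soat1, the acyltransferase that makes cholesterol esters, had 118, 117 and 138 CPM in WT and 123, 127 and 129.9 CPM in KO. The KO pools were close together inside the WT range, with a log2 fold change of 0.03 (95% interval −0.19 to 0.26). Cyp27a1, the mitochondrial enzyme that makes 27-hydroxycholesterol, had 25.5, 28.6 and 26.2 CPM in WT and 27.8, 22.1 and 27.1 CPM in KO. KO 2 alone was low, and the log2 fold change was −0.06 (−0.33 to 0.21).

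Lipid carriers, and not enzymes, stood at the top of the 33 genes by level. In WT lung Apoe stood at 443 CPM per kb (418 to 491 over the 3 pools), Npc2 at 314 (281 to 358) and Pltp at 224 (177 to 250.4). These 3 ranges did not meet, and Pltp was itself clear of the fourth gene, Nr1h2, at 48.0 CPM per kb. From Nr1h2 down to Nsdhl, at 10.2 CPM per kb, each gene's WT pools overlapped those of the next, so neighbours in this stretch did not differ beyond their spread. The stretch included Srebf2 at 39.5, Hmgcs1 at 37.7, Srebf1 at 29.2, Abcg1 at 20.9 and Abca1 at 10.6 CPM per kb. Dhcr7 at 6.95, Lss at 5.05 and Hsd17b7 at 3.67 CPM per kb closed the order, each without overlap with its neighbours. In KO lung the first 5 and the last 3 places were held by the same genes.

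Other genes of cholesterol and SREBP biology gave the same absence of calls. Of 40 further symbols, 39 had an entry in the table of counts and 37 passed the filter. Of these 37 genes, 0 were called, 0 had an unadjusted p under 0.05 and 0 had libraries that did not overlap. Over all genes the shares were 0.00676%, 1.88% and 5.46%. Log2 fold changes were above 0 for 22 and below for 15, with a median of 0.01. That is 59.5% above 0, against 50.8% among all genes. The smallest p belonged to Abca7, a lipid transporter related to Abca1, with 71.6, 86.5 and 75.9 CPM in WT and 59.8, 63.9 and 73.6 CPM in KO. The highest KO pool lay above the lowest WT pool, and the log2 fold change was −0.25 (standard error 0.12, unadjusted p = 0.0553). Next came Lrpap1, a chaperone of lipoprotein receptors, with a log2 fold change of 0.12, and Tm7sf2, a sterol reductase, with −0.16. Scd1 had 0.17, and Apoc1, a small apolipoprotein, had 0.16.

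Single transcripts of the 33 genes were also tested. They are no separate check, since they include the transcript that stood for each gene. The table held 43 RefSeq transcripts for them, with several transcripts for 7 genes. Tested one by one, 0 of the 43 had an unadjusted p under 0.05, beside 1.88% of all genes in the fit by gene. Transcripts of a gene shared most of their reads, as for Scarb1, where 2 forms had 1082 and 1028 counts in WT 1 and the third had 692. Exons of 5 of the 33 genes overlap a protein-coding gene on the opposite strand (Fdft1 with Ctsb, Cyp51 with Akap9, Srebf1 with Rai1, Pltp with Ctsa, and Npc1 with Rmc1), and exons of Fdps overlap Gm43738 on the same strand. Whether the authors' counting used the strand is not stated, so reads of these pairs could not be told apart.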

How the data were processed

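Lung RNA-seq of 3 WT and 3 KO libraries was analysed, each a pool of 3 littermates. The authors aligned high-quality paired-end HiSeq reads to mm10, TopHat is named in the submitters' processing notes, and the values deposited are raw whole-number counts for each of 31176 RefSeq transcripts and 33353 FANTOM3 clones, with no normalization. How reads were counted (tool, annotation, strand) is not given in the sources used here. FANTOM3 clones were left out of the gene-level fit, and 48 gene names that a spreadsheet had turned into dates were restored.

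Tests used R 4.3.3 with edgeR 4.0.16: filterByExpr (minimum count 10, minimum total 15), TMM scaling, and the two-sided quasi-likelihood test of genotype over 14802 genes, adjusted by Benjamini-Hochberg with 0.05 as the threshold. The biological coefficient of variation was 0.129 and log2 fold changes had a median standard error of 0.14. Intervals cover 95% and come from the fit. The pipeline was tested on simulated data. Levels per kb used the length of the matching GENCODE M21 transcript (33 of 33 matched), and promoters and positions came from RefSeq, GRCm38.p6.

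The members, role groups, further pathway genes and marker lists were chosen with earlier results of these data known. Library values were printed for the highest and lowest gene of each role group per kb, for Srebf2, Srebf1, Nr1h3 and Abca1, and for genes added after their values were seen. For further pathway genes, those with the 5 smallest p were named. Alternatives were RLE or no composition scaling, DESeq2 1.42.0, the exact test, limma-voom (limma 3.58.1), other filters, summed transcripts, Rn45s and Lars2 left out, a replicate block, each library left out, and a threshold of 0.1. Leaving out WT 2 and WT 3 together and testing each transcript were added after seeing the data. Libraries of a genotype differed by more than sampling noise, so none was counted as a copy.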

Additional observations from a re-analysis of the deposited data

How the results depend on the processing

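The count of called cholesterol genes was 0 of 33 under every alternative run, including a threshold of 0.1. The omission of WT 2 and WT 3 together, chosen after seeing the data, left WT 1 alone, which is assumed to vary like the KO pools, so its 0 calls say little about stability. Genes called over the whole table numbered 1 to 2 when each library was left out in turn, with 2 without WT 1, and 1 otherwise. Cholesterol genes at an unadjusted p under 0.05 numbered 1 with no composition scaling, namely Cyp51, and 0 to 2 over the omissions of single libraries, namely Hmgcs1 and Cyp51 without WT 3, and Pmvk and Cyp51 without KO 3. The edgeR p of Cyp51 was 0.0437 with no composition scaling and 0.0155 without WT 3, and that of Pmvk was 0.00358 without KO 3. The smallest adjusted p of the 33 genes over these omissions was 0.963. The median log2 fold change of the 33 genes was 0.04 to 0.06 over the same omissions, 0.08 with no composition scaling, where that of all genes rose to 0.04, and 0.09 without WT 2 and WT 3. Signs changed for 6 to 11 of 33 genes when 1 library was left out, for 13 without WT 2 and WT 3, for 2 with no composition scaling and for 0 under the others. The replicate block called 1 gene in all and 0 cholesterol genes, with a median of 0.04 and 197 genes at an unadjusted p under 0.05 in place of 278. The replicate numbers were not treated as pairs, since they are not stated to pair pools. Deviations of same-numbered libraries correlated at 0.13, −0.23 and −0.27. DESeq2 left 160 genes at that threshold. With 3 pools per genotype, the typical standard error of 0.14 limits what could be seen, and smaller shifts than the intervals given were not detectable. The causes of these shifts were not tested.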
